A study of Sus scrofa with 6 samples.

Results

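The antioxidant and redox defense genes are a set of 54 genes that make, regenerate or regulate the enzymes removing reactive oxygen, with the NADPH oxidases that produce it. They were compared in the lungs of 3 fetal and 3 neonatal piglets. The piglets were female hybrids with a Tibetan father and a Meishan mother. The fetal group was taken from 3 sows on the last day before birth and the neonatal group from 3 other sows 2 days after birth, so litter, age, birth and air breathing cannot be told apart here. RNA came from pieces of lung that hold all cell types, and fewer cells of a type and less RNA per cell cannot be told apart in such samples. Members were found by gene symbol among the 14579 mRNAs of the deposited table, which gives FPKM (fragments scaled by transcript length and by the number of mapped fragments). Of the 54 genes, 37 were found. The other 17 (SOD2, GPX1, GPX3, GPX7, SRXN1, TXN, GLRX2, GCLM, GSTP1, GSTK1, MGST1, MGST2, KEAP1, HMOX1, MSRB1, SELENOP and CYBA) matched no identifier in it and were not analysed here.

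Superoxide, formed by the respiratory chain and by NADPH oxidases, is turned into hydrogen peroxide by superoxide dismutases, and catalase, glutathione peroxidases and peroxiredoxins then remove the peroxide. Peroxiredoxins are recharged by thioredoxin and glutathione peroxidases by glutathione, and both of these are kept reduced with electrons from NADPH. The transcription factor NRF2, encoded by NFE2L2 and held back by KEAP1, drives many of these genes, which protect the lung when the newborn passes from the low oxygen of fetal life to air.

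The tissue label was borne out by the marker genes, since SFTPC, a surfactant protein of alveolar type II cells, was at 3171 FPKM or more in all 6 samples and AGER of alveolar type I cells at 396 FPKM or more. The summed FPKM of all mRNAs was at most 471220 before birth (lowest 339491) and at least 491548 after birth (highest 777982), and the table holds no counts from which a counting error could be taken. The groups were compared by limma on log2(FPKM + 1), a scale that understates the change of weakly expressed genes, with Benjamini-Hochberg adjustment over all 14579 mRNAs. A gene is said to have risen or fallen when its adjusted p was 0.05 or less.

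Among the 37 members, GLRX, TXNRD1 and PGD rose after birth and TXNIP fell. These 3 rises are 8.11% of the members, where 5.41% of all mRNAs rose, and the 1 fall is 2.70%, where 1.45% of all mRNAs fell. In both directions together, 6.87% of all mRNAs were called. The 3 neonatal values were all above the 3 fetal ones in 13 members (35.1%; 20.9% of all mRNAs) and all below them in 3 (8.11%; 9.64% of all mRNAs), while the groups overlapped in 21. The mean was higher in the neonatal group for 30 members and lower for 7. The median difference of the members was 0.46 on the log2 scale, beside 0.13 for all mRNAs. After median-of-ratios scaling of the samples these medians were 0.30 and -0.0090, and 27 members were higher. After quantile normalization they were 0.23 and -0.04, and 26 were higher. The plot of differences by role shows all 37 members.

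**Figure D1:**
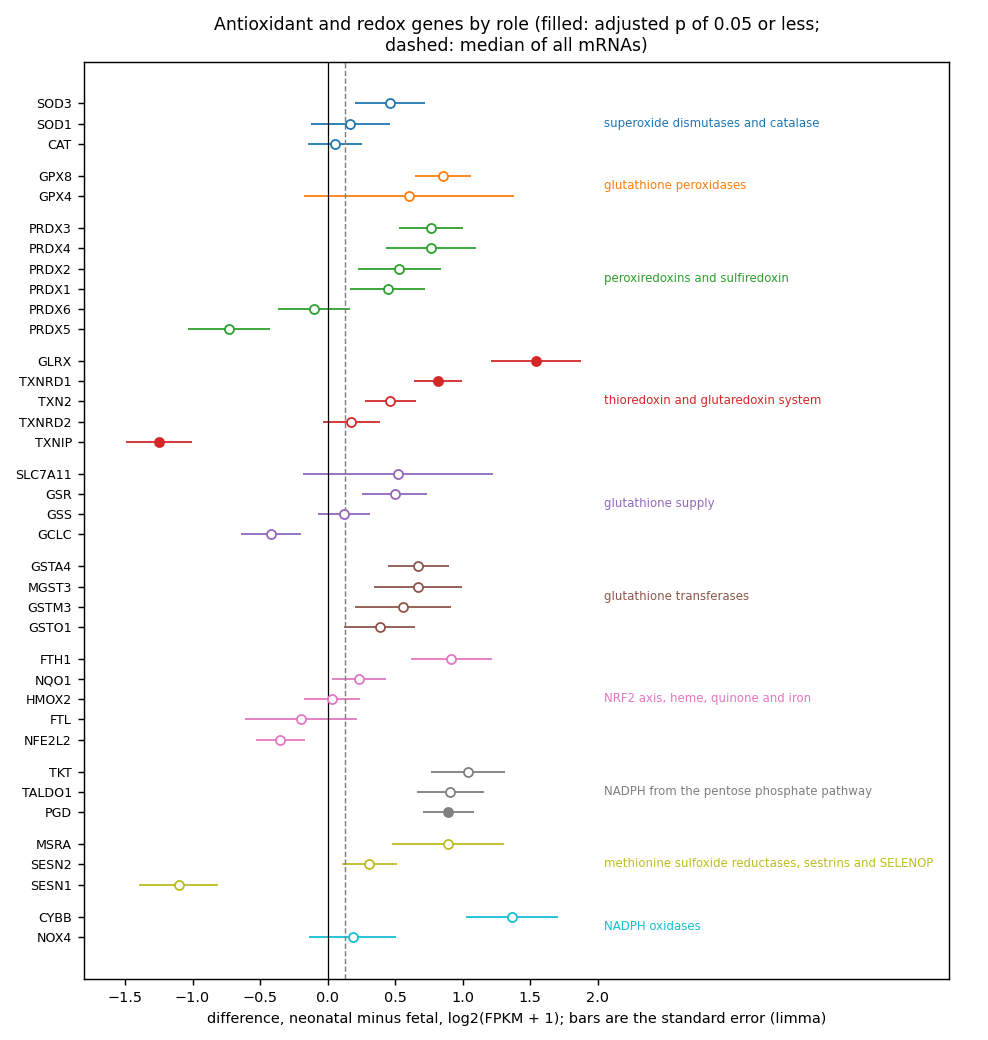
Difference between the neonatal and the fetal group in log2(FPKM + 1) for the 37 members (horizontal axis; bars are the standard error from limma, n = 3 per group), grouped by role. Filled points mark GLRX, TXNRD1, PGD and TXNIP, which had an adjusted p of 0.05 or less, the dashed line is the median of all mRNAs at 0.13, and the members range from -1.25 for TXNIP to 1.54 for GLRX.

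How a member got its name bears on these counts. The identifiers of 33 members carry their symbol in the reference table, while TXNIP, GLRX, FTH1 and CYBB were named through the study's own list of changed genes, which holds only genes that the study called on these samples. Of the mRNAs named in that second way, 24.9% were called, against 7.47% of those named by the reference table. Among the 33 members named by the reference table, 2 rose (TXNRD1 and PGD) and 0 fell, 6.06% in all. In these 33, the neonatal values were all above the fetal ones in 10 and all below them in 2. The same held for 2214 and 970 of the 9478 mRNAs named by the reference table. The 4 members named through the study's list added 3 above and 1 below. Counted over all 37 members, 14 had an unadjusted p under 0.05 in limma, as did 3535 of the 14579 mRNAs. The 14 include TXNIP, GLRX, FTH1 and CYBB, which could be named only because the study had called them changed on these samples.

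The thioredoxin and glutaredoxin system, with 5 genes found, held 3 of the 4 called members, where 6.87% of all mRNAs were called. Of these 3, TXNIP and GLRX were named through the study's own list of changed genes, and TXNRD1 through the reference table. The reference table gives the symbol TXNIP to another identifier, which the deposited table lacks. The name of the row read here as TXNIP thus rests on the study's list alone. TXNIP (ENSSSCG00000006681) encodes the thioredoxin-interacting protein, which binds reduced thioredoxin and blocks it, and whose transcription follows glucose. Its FPKM was 301 in Fetal1, 206 in Fetal2 and 237 in Fetal3, against 88.5 in Neonatal1, 101 in Neonatal2 and 122 in Neonatal3 (values below follow this order). The lowest fetal value was thus well above the highest neonatal value. TXNIP fell by 1.25 on the log2 scale (standard error 0.24, adjusted p = 0.0277), and its fetal mean was 2.39 times its neonatal mean.

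TXNRD1 (ENSSSCG00000000843), the cytosolic thioredoxin reductase and a selenoprotein, moved the other way. It stood at 11.4, 12.1 and 11.8 FPKM before birth, a narrow range, and at 19.3, 20.0 and 25.7 FPKM after birth. This is a rise of 0.82 on the log2 scale (standard error 0.18, adjusted p = 0.0372), or 1.84 times in the means. With median-of-ratios scaling the adjusted p of TXNRD1 was 0.0514 and after quantile normalization 0.0540, with log2 differences of 0.65 and 0.60. GLRX (ENSSSCG00000014167), glutaredoxin, which uses glutathione to release proteins from mixed disulfides, went from 22.8, 19.2 and 18.7 FPKM to 35.0, 73.2 and 86.0 FPKM. All neonatal values were above all fetal ones, with Neonatal1 far below the other two. The log2 difference was 1.54 (standard error 0.33, adjusted p = 0.0366), the largest rise among the members. The mitochondrial partners of this system did not pass the test. TXN2, mitochondrial thioredoxin, had 17.4, 14.6 and 14.4 FPKM and then 18.5, 25.9 and 21.2 FPKM (adjusted p = 0.189) without overlap, and TXNRD2, its reductase, had 3.98, 6.13 and 3.86 FPKM and then 5.72, 5.08 and 5.08 FPKM (adjusted p = 0.648).

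The 4 calls depended on which samples were in the fit. Calls among all mRNAs also fell when 1 sample was left out, from 1001 to between 196 and 944. With any 1 of the 6 samples left out, the adjusted p of TXNIP was between 0.0536 and 0.109 and that of PGD between 0.0611 and 0.124. GLRX and TXNRD1 stayed past the threshold only without Neonatal1, at 0.0169 and 0.0470. With any other sample left out, GLRX was between 0.105 and 0.153 and TXNRD1 between 0.0867 and 0.127. Across these fits the log2 differences were -1.37 to -1.10 for TXNIP and 0.76 to 1.01 for PGD. They were 1.29 to 1.93 for GLRX and 0.70 to 0.89 for TXNRD1.

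**Figure D2:**
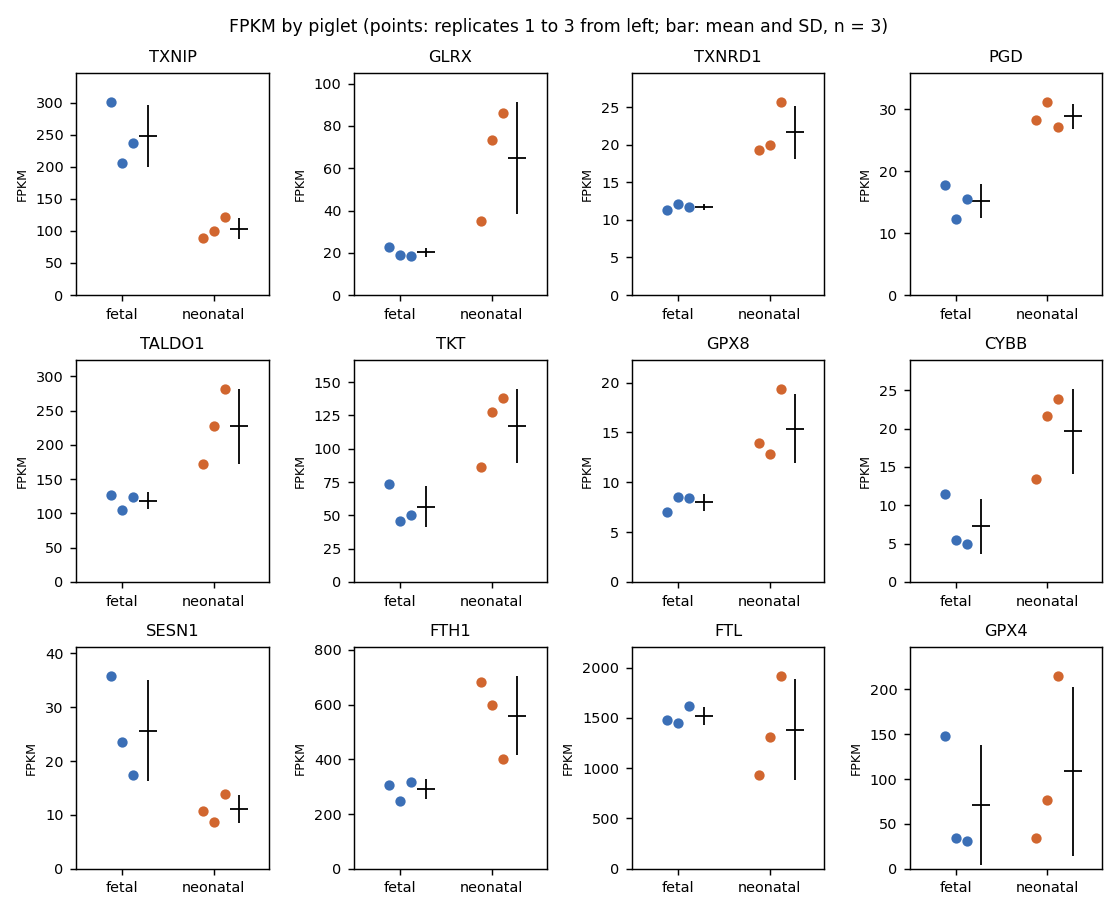
FPKM of 12 members in each piglet (points, replicates 1 to 3 from left to right in each group; the bar is the mean and SD, n = 3), on axes that start at 0. TXNIP and SESN1 are lower in every neonatal sample, GLRX, TXNRD1, PGD, TALDO1, TKT, GPX8, CYBB and FTH1 are higher in every neonatal sample, and FTL and GPX4 overlap.

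NADPH reaches both systems in large part from the pentose phosphate pathway, and its 3 member enzymes were all higher after birth without overlap, as were 20.9% of all mRNAs. PGD (ENSSSCG00000003402), 6-phosphogluconate dehydrogenase, makes NADPH itself. It was at 17.8, 12.3 and 15.5 FPKM before birth and at 28.2, 31.1 and 27.2 FPKM after birth, a rise of 0.89 on the log2 scale (standard error 0.19, adjusted p = 0.0352). After quantile normalization its log2 difference was 0.66 with an adjusted p of 0.0629. TALDO1 and TKT, transaldolase and transketolase, return the sugars of the pathway to glycolysis. TALDO1 had 127, 105 and 124 FPKM before birth and 173, 227 and 281 FPKM after it, with a log2 difference of 0.91 (standard error 0.25, adjusted p = 0.0773). TKT had 73.9, 45.9 and 50.0 FPKM before and 85.9, 127 and 138 FPKM after, with a log2 difference of 1.04 (standard error 0.27, adjusted p = 0.0688). Both missed the threshold in the full fit and passed it without Neonatal1, the lowest neonatal sample of each, at 0.0433 and 0.0490. Leaving out any other sample gave an adjusted p of 0.161 to 0.234 for TALDO1 and 0.0869 to 0.230 for TKT. The summed FPKM of the 3 enzymes was 219, 163 and 189 before birth and 287, 386 and 447 after birth.

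The genes of glutathione supply held 0 calls among the 4 that were found. GCLC, the catalytic subunit of glutamate-cysteine ligase, which limits the rate of glutathione synthesis, was at 16.7, 13.0 and 11.1 FPKM before birth and 7.999, 10.1 and 11.6 FPKM after it. The neonatal mean was lower by 0.42 on the log2 scale (standard error 0.22, adjusted p = 0.287), with Neonatal3 inside the fetal range. GSS, glutathione synthetase, stayed low, between 1.604 and 2.24 FPKM in all 6 samples. GSR, glutathione reductase, which spends NADPH to regenerate glutathione, was at 4.70, 4.86 and 4.96 FPKM in the fetal group and 5.35, 6.77 and 10.3 FPKM in the neonatal group (log2 difference 0.50, adjusted p = 0.254). Its groups did not overlap, and without Neonatal3 the difference was 0.27. SLC7A11, the cystine transporter, was listed at 0 in Fetal1, Fetal3 and Neonatal1, at 1.28 FPKM in Fetal2, 0.120 FPKM in Neonatal3 and 5.04 FPKM in Neonatal2.

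Of the glutathione peroxidases, GPX8 and GPX4 were measured. GPX8, a cysteine-containing peroxidase of the endoplasmic reticulum, had 6.997, 8.53 and 8.41 FPKM before birth and 14.0, 12.8 and 19.4 FPKM after birth. The groups were well apart, and the log2 difference of 0.85 (standard error 0.21) narrowly missed the threshold (adjusted p = 0.0526). Among mRNAs with FPKM above 1 in at least 3 samples alone, the adjusted p was 0.0434. It was 0.0814 with median-of-ratios scaling and 0.0781 after quantile normalization. GPX4, the selenoenzyme that reduces lipid peroxides in membranes, varied more within each group than between them. It stood at 148, 34.6 and 31.0 FPKM before birth and 34.8, 76.4 and 215 FPKM after birth (log2 difference 0.61, standard error 0.78, adjusted p = 0.667), and without Neonatal3 the difference was -0.07. Its standard error was the largest among the 37 members.

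The glutathione transferases attach glutathione to electrophiles, including products of lipid peroxidation. All 4 that were found had a higher neonatal mean and 0 were called. GSTA4, which handles the lipid aldehyde hydroxynonenal, had 3.43, 3.82 and 3.69 FPKM and then 6.47, 4.69 and 8.52 FPKM (adjusted p = 0.129) without overlap. MGST3, a membrane-bound member and the most strongly expressed of them, had 51.4, 33.4 and 43.4 FPKM and then 47.4, 60.0 and 108 FPKM (adjusted p = 0.257). GSTM3 and GSTO1 had log2 differences of 0.55 and 0.38 and overlapped between the groups.

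No member among the superoxide dismutases and catalase was called. CAT, the peroxisomal catalase, ranged from 118 to 144 FPKM over the 6 samples, with means of 129 ± 11.4 in the fetal and 134 ± 14.3 in the neonatal group (SD, n = 3 each). SOD1, the cytosolic copper-zinc enzyme, was at 141, 114 and 109 FPKM and then at 94.4, 141 and 188 FPKM. The log2 differences of CAT and SOD1, 0.06 (standard error 0.20) and 0.17 (standard error 0.29), turned to -0.12 and -0.0080 with median-of-ratios scaling and to -0.34 and -0.30 after quantile normalization. SOD3, the extracellular enzyme, had 6.79, 11.1 and 9.77 FPKM and then 12.8, 16.9 and 9.69 FPKM (adjusted p = 0.319).

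Of the 6 peroxiredoxins found, 4 had a higher and 2 a lower neonatal mean, and 0 were called. PRDX2, abundant in the cytosol and in red blood cells, was the most strongly expressed at 233 ± 40.9 and 344 ± 109 FPKM (SD, n = 3 each), followed by PRDX1, also cytosolic, at 107 ± 21.7 and 149 ± 40.8 FPKM (SD, n = 3 each). Both overlapped between the groups, as did PRDX4 of the endoplasmic reticulum and PRDX6, which uses glutathione and also acts as a phospholipase in surfactant turnover. PRDX3, which resides in mitochondria, was at 12.1, 9.02 and 11.7 FPKM before birth and 14.1, 20.5 and 24.1 FPKM after it. The groups were apart (log2 difference 0.76, standard error 0.24, adjusted p = 0.104), and without Neonatal1 PRDX3 passed the threshold at 0.0497. Leaving out any other sample gave it an adjusted p between 0.182 and 0.296.

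PRDX5, found in mitochondria, peroxisomes and cytosol, had a lower neonatal mean. It was at 99.998, 80.5 and 76.5 FPKM before birth and 35.4, 47.2 and 78.7 FPKM after birth, so that Neonatal3 reached the fetal range. The log2 difference was -0.73 (standard error 0.31, adjusted p = 0.198). It was -0.91 with median-of-ratios scaling (adjusted p = 0.0814) and -1.08 after quantile normalization (adjusted p = 0.0310). A share within each sample does not change when all its values are scaled by a common factor. Quantile normalization is not such a scaling and can change it. Of the summed FPKM of PRDX1 to PRDX6, PRDX5 made up 16.7%, 17.8% and 14.1% before birth and 7.26%, 7.17% and 8.61% after birth, all of the latter lower. PRDX2 made up 41.9%, 41.0% and 48.2% before and 51.8%, 47.9% and 50.9% after birth, with an overlap at Fetal3 and Neonatal2. These shares were chosen after the values had been seen and were not tested.

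The same reading was made for other pairs of members, also picked after the values had been seen and not tested. TXNIP was 26.4, 17.0 and 20.2 times TXNRD1 before birth and 4.57, 5.04 and 4.73 times after birth, which lay close together. Since every neonatal TXNIP value was lower and every neonatal TXNRD1 value higher, this ratio had to be lower after birth. The ratio of FTL to FTH1, the light and heavy chains of the iron store ferritin, was 4.86, 5.83 and 5.11 before birth. In Neonatal1 and Neonatal2 it was 1.36 and 2.18, but in Neonatal3 it was 4.79, just below the lowest fetal ratio. The 37 members together made up 0.852%, 0.896% and 0.730% of the summed FPKM of all mRNAs before birth and 0.612%, 0.627% and 0.620% after birth. Their own summed FPKM was 3368 ± 297 and 3872 ± 908 (SD, n = 3 each), so that the lower share went with the larger total of all mRNAs in the neonatal group.

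**Figure D3:**
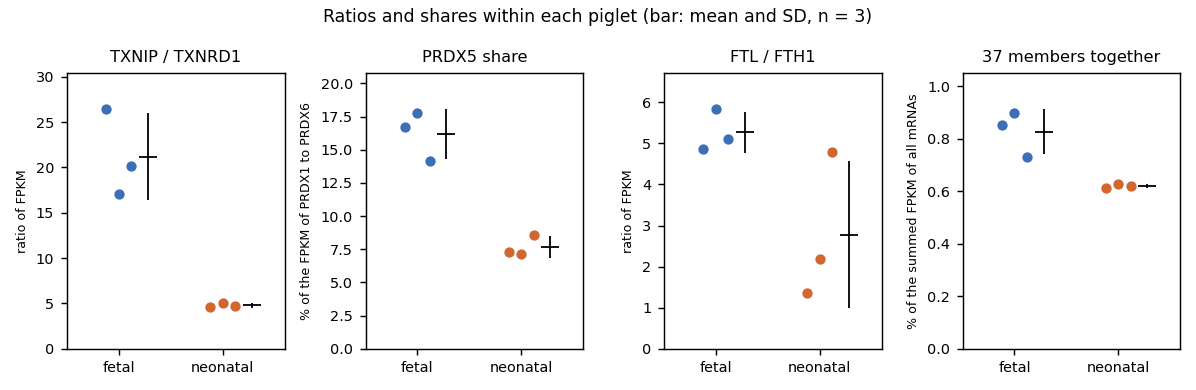
Ratios of FPKM and shares of FPKM within each piglet (points; the bar is the mean and SD, n = 3), on axes that start at 0. All neonatal values lie below all fetal values in the 4 panels, and Neonatal3, at 4.79 for FTL over FTH1, comes near the fetal range of 4.86 to 5.83. For TXNIP over TXNRD1 the separation follows from the values of both genes.

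The NRF2 axis gave no common direction. NFE2L2 itself was at 28.9, 28.03 and 32.8 FPKM before birth and 19.7, 24.2 and 26.1 FPKM after it, all lower (log2 difference -0.35, standard error 0.18, adjusted p = 0.280). The difference was -0.52 (adjusted p = 0.0873) with median-of-ratios scaling and -0.62 (adjusted p = 0.0414) after quantile normalization. With 1 sample left out, the adjusted p of NFE2L2 was between 0.249 and 0.461. Of 15 well-known NRF2 targets among the members, 11 were found, 9 had a higher and 2 a lower neonatal mean, 2 rose (PGD and TXNRD1; 18.2%, where 5.41% of all mRNAs rose) and 0 fell (1.45% of all mRNAs fell). Their median log2 difference was 0.52, beside 0.13 for all mRNAs. NQO1, the quinone reductase often read as the typical NRF2 target, had 8.51, 6.28 and 9.53 FPKM and then 10.7, 8.82 and 9.29 FPKM (adjusted p = 0.517), and GCLC was lower, as given above. Among partners and feedback genes of NRF2 outside the members, 6 of 9 were found (NFE2L1, MAFF, BACH1, BACH2, CUL3 and SQSTM1). Their median difference was -0.20, all 6 had a lower neonatal mean, and 0 passed the test. After quantile normalization SQSTM1, which binds KEAP1, passed at 0.0394, but with median-of-ratios scaling its adjusted p was 0.146.

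The ferritin chains were the most strongly expressed members. FTL, the light chain, ranked 61 among all mRNAs by its mean and stood at 1482, 1454 and 1622 FPKM before birth and at 928, 1305 and 1917 FPKM after it. The neonatal values reached below and above the fetal range (log2 difference -0.20, adjusted p = 0.800). FTH1 (ENSSSCG00000014540), the heavy chain, which oxidizes iron for storage, was at 305, 249 and 317 FPKM and then at 683, 597 and 400 FPKM, all higher (log2 difference 0.92, standard error 0.30, adjusted p = 0.120). Ferritin genes have many processed copies in mammalian genomes, among which reads can be split, so both levels are uncertain. HMOX2, the constitutive heme oxygenase, had 25.0 ± 1.91 and 26.0 ± 5.60 FPKM (SD, n = 3 each), and its log2 difference of 0.03 turned to -0.14 with median-of-ratios scaling and -0.24 after quantile normalization.

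Between the levels of single members lay more than 3 orders of magnitude in FPKM, which is per length and so can be compared between genes. FTL stood clear of all other members in both groups, with mean levels of 1519 FPKM before and 1383 FPKM after birth. In the fetal group FTH1 (291 FPKM), TXNIP (248 FPKM) and PRDX2 (233 FPKM) came next, and their samples overlapped in range. In the neonatal group FTH1 (560.0 FPKM) was followed by PRDX2 (344 FPKM) and TALDO1 (227 FPKM), each overlapping its neighbour, while TXNIP was at 104 FPKM. At the lower end were GSS, with means of 1.803 and 2.051 FPKM, and SESN2, with 0.532 and 0.891 FPKM. SLC7A11, with means of 0.427 and 1.72 FPKM, was also below GSS in both groups and was the lowest member in the fetal group.

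**Figure D4:**
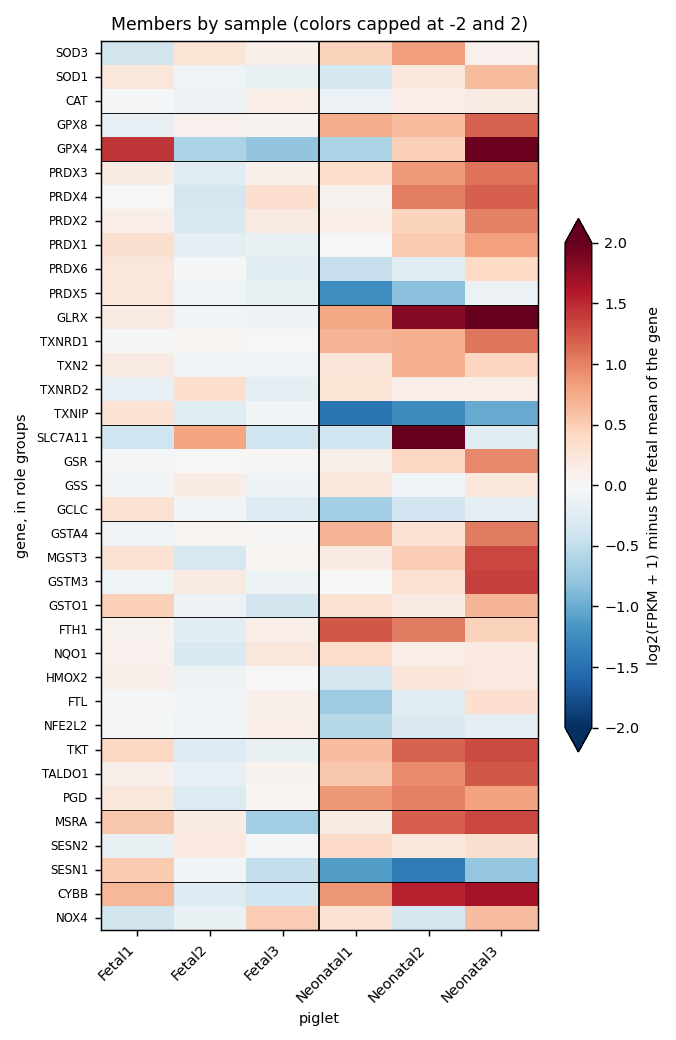
Each of the 37 members (rows, in role groups separated by lines) in each of the 6 piglets (columns), as log2(FPKM + 1) minus the mean of the gene in the fetal group; colors are capped at -2 and 2. Neonatal3 has the highest neonatal value in 27 members and Neonatal1 the lowest in 25, and TXNIP and SESN1 are blue in all neonatal columns.

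The neonatal piglets differed among themselves in most of these genes. Neonatal3, which also had the largest summed FPKM of all mRNAs, was the highest neonatal sample for 27 members, and Neonatal1 was the lowest for 25. In the fetal group Fetal1 was the highest sample for 19 members. The members' median difference was 0.66 without Neonatal1 and 0.27 without Neonatal3.

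Among repair enzymes and stress regulators, SESN1 had the largest difference. Sestrins are targets of p53 and FOXO factors that restrain mTORC1 signalling and help to recycle peroxiredoxins. SESN1 was at 35.8, 23.6 and 17.5 FPKM before birth and 10.8, 8.64 and 14.0 FPKM after birth. Every neonatal value was lower, although the fetal values ranged widely (log2 difference -1.10, standard error 0.29, adjusted p = 0.0700). With median-of-ratios scaling SESN1 passed the threshold at 0.0364, and after quantile normalization at 0.0331. SESN2, which responds to amino acid and oxidative stress, was weakly expressed, at 0.372, 0.739 and 0.484 FPKM and then 0.992, 0.768 and 0.912 FPKM (adjusted p = 0.388). MSRA, which repairs oxidized methionine, had 6.73, 4.91 and 2.29 FPKM and then 4.86, 11.1 and 12.4 FPKM (adjusted p = 0.241) and overlapped.

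The NADPH oxidases make superoxide or hydrogen peroxide, for killing microbes in phagocytes and for signalling elsewhere. CYBB (ENSSSCG00000012229), the catalytic gp91phox subunit of the phagocyte oxidase, was at 11.4, 5.49 and 4.92 FPKM before birth and 13.4, 21.7 and 23.9 FPKM after it. The log2 difference was 1.36 (standard error 0.34, adjusted p = 0.0589), and among mRNAs with FPKM above 1 in at least 3 samples alone the adjusted p was 0.0473. It was 0.0603 with median-of-ratios scaling and 0.0608 after quantile normalization. NOX4, the constitutively active oxidase of vascular and mesenchymal cells, overlapped, with 3.39, 4.12 and 6.97 FPKM and then 5.86, 3.46 and 7.64 FPKM (adjusted p = 0.755).

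Of 13 other oxidase subunits and their partners, 10 were found. The table keeps mRNAs above 0.5 FPKM in at least 1 sample, and 4 of the 10 (DUOX1, DUOX2, DUOXA1 and DUOXA2) met this only through the neonatal group, so that a higher neonatal value was fixed for them by the filter. The other 6 all had a higher neonatal mean, and 2 of them rose, among them NCF4, where 5.41% of all mRNAs rose. All 37 members met the filter in both groups. NCF4, or p40phox, a regulator of the phagocyte oxidase, was at 6.63, 4.13 and 3.54 FPKM and then 9.26, 25.6 and 22.5 FPKM (log2 difference 1.72, adjusted p = 0.0433). Its adjusted p was 0.0241 without Neonatal1 and between 0.0899 and 0.177 with any other sample left out. NCF1, or p47phox, had a log2 difference of 1.24 and an adjusted p of 0.103.

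DUOX1 and DUOXA2 belong to the dual oxidase system, which releases hydrogen peroxide at the apical face of airway epithelium. DUOXA2, the maturation factor of DUOX2, was at 0.124 and 0.0314 FPKM in Fetal1 and Fetal2, was listed at 0 in Fetal3, and was at 3.67, 7.08 and 3.49 FPKM after birth. DUOX1 was at 0.967, 0.875 and 1.43 FPKM after birth, at 0.135 and 0.0433 FPKM in Fetal1 and Fetal2, and listed at 0 in Fetal3. These values are a description, and no test of the dual oxidase genes is read here.

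Markers of phagocytes were read beside these genes. Of 9 neutrophil markers, 6 were found and 4 rose (S100A8, S100A9, S100A12 and LTF), where 5.41% of all mRNAs rose. The summed FPKM of the 6 was between 84.3 and 158 before birth and between 851 and 1319 after birth, without overlap. Most of this sum was S100A8, S100A9 and S100A12 in every sample, so it says little about the other markers. CSF3R did not pass (log2 difference 1.23, adjusted p = 0.0846), and the granule gene ELANE was listed at 0 in all 3 neonatal samples, having met the filter through the fetal group alone. Of 12 macrophage markers, 10 were found and 0 rose, all with a higher neonatal mean, although CSF1R turned to -0.085 on the log2 scale with median-of-ratios scaling and -0.071 after quantile normalization. Their summed FPKM lay between 443 and 1022 before and between 769 and 1831 after birth, with an overlap at Fetal1 and Neonatal1. Fetal1 was also the highest fetal sample, and Neonatal1 the lowest neonatal sample, for CYBB. Neither place is particular to CYBB, since Fetal1 was the highest fetal sample for 19 members and Neonatal1 the lowest neonatal sample for 25. CD68 had a log2 difference of 1.25 and an adjusted p of 0.0506. The part of these cells in the differences of CYBB and NCF4 was not tested. Markers of erythroid cells, which are rich in PRDX2 and CAT, had 6 of 10 genes found and 0 called, with a summed FPKM between 1263 and 2706 before and between 971 and 1539 after birth. Most of this sum was HBB, with a log2 difference of -0.77 (adjusted p = 0.346), while HBM and SLC4A1 had higher neonatal means, with log2 differences of 0.78 and 0.20, as did KLF1, which met the filter through the neonatal group alone.

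**Figure D5:**
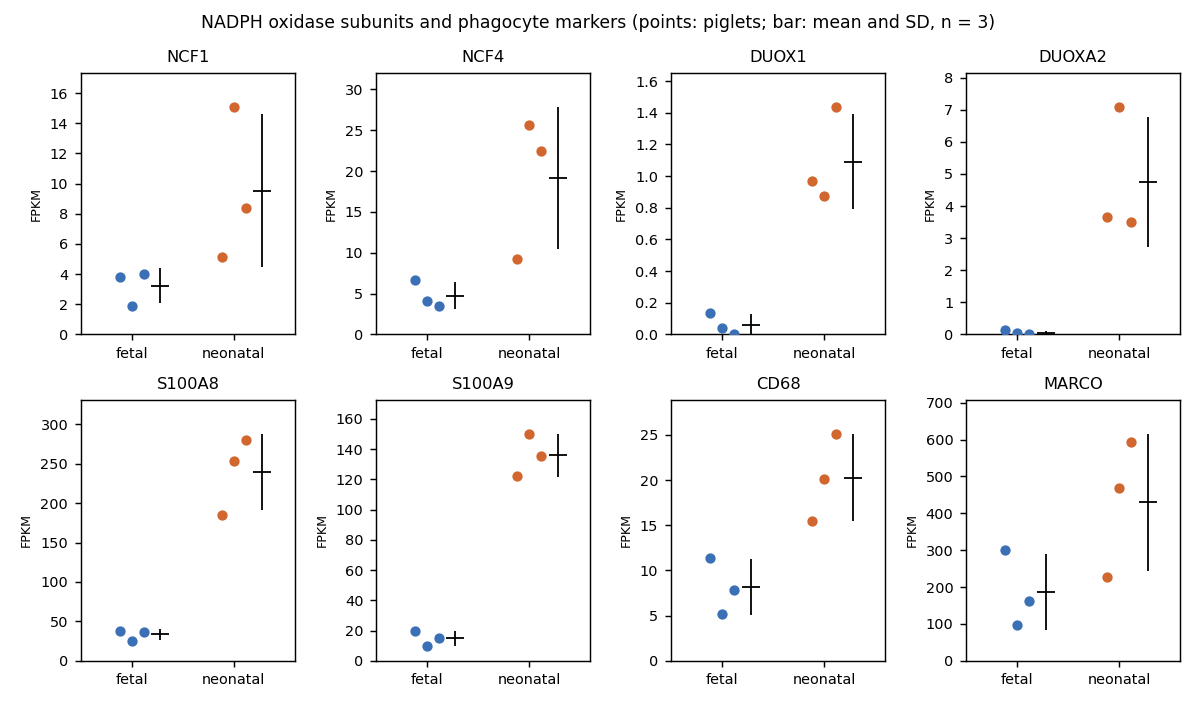
FPKM of 4 subunits or partners of NADPH oxidases outside the 37 members and of the phagocyte markers S100A8, S100A9, CD68 and MARCO in each piglet (points; the bar is the mean and SD, n = 3), on axes that start at 0. All panels but MARCO show every neonatal value above every fetal value, which the filter of the table fixed in part for DUOX1 and DUOXA2, and for MARCO, Fetal1 lies above Neonatal1.

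The other pathway genes outside the members numbered 97, of which 62 were found under 63 identifiers. Of these, 7 identifiers rose (11.1%, where 5.41% of all mRNAs rose) and 1 fell (1.59%, where 1.45% of all mRNAs fell). The median log2 difference of the 63 was 0.36, beside 0.13 for all mRNAs. The 7 include DUOX1 and DUOXA2, for which the filter fixed a higher neonatal value, so the 11.1% was in part fixed too. In all, 5 of the 63 met the filter through the neonatal group alone. Among the 58 that met the filter of the table in both groups, 5 rose and 1 fell, with a median of 0.36. Besides the oxidase genes, the rises were those of MTHFD1, SELENOM and CBR3. MTHFD1, a cytosolic folate enzyme that yields NADPH, was at 7.96, 6.75 and 7.42 FPKM before and 12.7, 15.4 and 14.2 FPKM after birth (log2 difference 0.85, adjusted p = 0.0301). IDH2, the mitochondrial isocitrate dehydrogenase that also yields NADPH, did not overlap between the groups either, with a log2 difference of 0.84 (adjusted p = 0.0974). SELENOM, a selenoprotein of the endoplasmic reticulum with a thioredoxin-like fold, went from 14.0, 8.51 and 23.6 FPKM to 58.6, 69.4 and 95.0 FPKM (log2 difference 2.28, adjusted p = 0.0140). CBR3, a carbonyl reductase, rose by 1.75 on the log2 scale (adjusted p = 0.0258). SELENBP1, a selenium-binding protein, fell by 1.18, from 26.0, 21.1 and 29.8 FPKM to 10.7, 10.1 and 11.2 FPKM (adjusted p = 0.0138). With single samples left out, the adjusted p of these 4 genes reached 0.123 for MTHFD1 (without Fetal2), 0.0718 for SELENOM (without Neonatal3), 0.105 for CBR3 and 0.0669 for SELENBP1 (both without Neonatal2). The lists of other glutathione genes and of other thioredoxin-fold genes, with 9 and 7 genes found, held 0 calls each.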

How the data were processed

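The authors depleted ribosomal RNA from lung RNA of 6 piglets with Ribo-Zero and sequenced stranded libraries. The deposited mRNA table holds FPKM, which the authors computed with Cufflinks 2.2.1 after mapping to Sscrofa10.2 with TopHat 2.1.0; all 14579 mRNAs were above 0.5 FPKM in at least 1 sample. Depth cannot be read from this table, and precision rests on 3 replicates per group. All 6 value columns were matched to samples by name, and 0 were left over. The lncRNA table was not used.

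Symbols came from a reference table for 9478 identifiers and from the study's list of changed genes, held in part, for 362. Members, role groups and other lists were chosen with earlier results of these data known. Every member could be named; other pathway genes were named when past the threshold. NCF1, DUOX2, DUOXA1, IDH2, SQSTM1, the other NRF2 partners, SELENOS, SELENOF, SELENON and SECISBP2 fall outside this rule and were picked after their values were seen. Some other pathway genes are counted but not reported here by name.

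Values were fitted as log2(FPKM + 1) under R 4.3.3 by limma 3.58.1, letting the prior variance follow the mean level, neonatal against fetal, and adjusted by Benjamini-Hochberg over all mRNAs. The fit was tested on simulated data. Alternatives were pseudocounts of 0.5 and 0.1, a minimum of more than 1 FPKM in 3 samples, quantile normalization, median-of-ratios scaling, no variance trend, a replicate block, each sample left out, and, added after seeing the data, members named by the reference table alone. Summaries used Python 3.11.15. No sequences or coordinates were used.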

Additional observations from a re-analysis of the deposited data

How the results depend on the processing

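With the replicate number as a replicate block, 401 mRNAs were called in place of 1001 (336 higher, 65 lower) and 0 members; same-numbered samples came from different litters and did not deviate together (correlations between -0.0407 and 0.000467), so the block carries no pairing and its lost calls are no weaker effect. With 1 sample left out, calls among all mRNAs ranged from 196 to 944 (163 to 785 higher, 33 to 159 lower), and among the members from 0 to 5 (0 to 5 higher, 0 in each fit lower); the 5 were GLRX, TXNRD1, PRDX3, TALDO1 and TKT without Neonatal1, and the median of the members ranged from 0.27 without Neonatal3 to 0.66 without Neonatal1. Calls lower in the neonatal group numbered 212 of all mRNAs, 335 after median-of-ratios scaling and 486 after quantile normalization, so that the share of higher calls went from 78.8% to 66.0% and 57.9%. Among the members, median-of-ratios scaling gave 2 lower calls and quantile normalization 1 higher and 4 lower calls with a median of 0.23, and the minimum of more than 1 FPKM in 3 samples gave 5 higher calls. Among the 33 members named by the reference table alone, 2 were called and 0 of them were lower. Signs turned only in members without a call. With median-of-ratios scaling CAT was at -0.12, HMOX2 at -0.14 and SOD1 at -0.0080; after quantile normalization CAT was at -0.34, HMOX2 at -0.24, SOD1 at -0.30 and GSS at -0.0049. With 1 sample left out, FTL ranged from -0.46 to 0.060, GPX4 from -0.073 to 1.32, HMOX2 from -0.074 to 0.22, NOX4 from -0.028 to 0.45, PRDX6 from -0.35 to 0.077, SLC7A11 from -0.31 to 0.98, and SOD1 from -0.066 to 0.43. Neither pseudocount nor the fit without a trend changed a call among the members; the causes of the other changes were not tested.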

Other observations

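Selenoproteins are made with a dedicated machinery, and of 7 members that are selenoproteins 3 were found. TXNRD1 rose, while TXNRD2 and GPX4 overlapped between the groups. Of the other selenoproteins, SELENOS, which sits in the endoplasmic reticulum, was at 16.0, 11.6 and 9.66 FPKM before and 17.5, 19.4 and 33.9 FPKM after birth, all higher (log2 difference 0.84, adjusted p = 0.140 in limma). SELENOF and SELENON overlapped between the groups. SECISBP2, the protein that reads the selenocysteine signal, was listed under 2 identifiers with log2 differences of -0.45 and 0.49, neither of them past the threshold (adjusted p = 0.418 and 0.231).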
